A study of Mus musculus with 4 samples.

Results

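The genes described here, called the members, are Flt3 and 9 other haematopoietic growth factor receptor and signalling genes of mouse dendritic cells (DCs): Csf1r, Csf2ra, Csf2rb, Csf2rb2, Csf3r, Kit, Stat3, Stat5a and Socs2. They were chosen by name, and each was read from its brightest probe set that carries a single symbol, which found 10 of 10 genes among 19938 measured genes. Bone marrow cells of miR-142-/- (ko) or miR-142+/+ (wt) mice, both on the C57BL/6 background, were cultured for 8 days in medium with Flt3 ligand at 200 ng/ml. All groups therefore grew in the ligand of the first of these receptors. B220-negative, CD11c-positive cells were then sorted into CD8-equivalent DCs (negative for CD172, positive for CD24, low for CD11b) and CD4-equivalent DCs (positive for CD172 and CD11b, low for CD24). The 4 groups were ko CD8-equivalent, wt CD8-equivalent, ko CD4-equivalent and wt CD4-equivalent DCs, with 1 Affymetrix array each. The labels give neither the deleted part of the Mir142 locus, nor the age of the mice, nor the number of mice or cultures pooled for each array.

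Values are RMA log2 expression summaries, so a difference of 1 is 2-fold, and a level can be compared between arrays for 1 gene but not between genes. A floor of 5.68, the median of all single-symbol probe sets, marked values too low to rank, and 9774 to 9821 genes reached it on an array. A difference between single arrays has no replicate check. The genotype and subset effects over all 4 arrays were tested with limma and Benjamini-Hochberg adjustment over 10239 genes, with the interaction as the only residual degree of freedom. These p-values therefore measure an effect against that interaction, pooled with the residuals of all genes, and not against spread between replicate arrays. Technical spread and a genotype effect that differs by subset cannot be told apart in it. In sorted bulk samples, fewer cells of a type and less RNA per cell cannot be told apart.

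These receptors connect the cytokines of the bone marrow to cell fate. Flt3, Kit and Csf1r are related receptor tyrosine kinases, for Flt3 ligand, stem cell factor and M-CSF. Flt3 is needed for the DC lineage, Kit marks early progenitors, and Csf1r serves monocytes and macrophages. Csf2ra binds GM-CSF and signals with the common beta chain Csf2rb, which is shared with the receptors for IL-3 and IL-5. Csf2rb2 is a mouse paralog of that chain which serves the IL-3 receptor. Csf3r is the G-CSF receptor of the neutrophil lineage. Stat3 and Stat5a carry the signals of such receptors to the nucleus, and Socs2 is a feedback inhibitor that is itself induced through Stat5.

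The microRNA removed in the ko cells gives 2 mature strands. Their RefSeq sequences (GRCm38.p6, chr11:87756903-87756925 and chr11:87756867-87756887, plus strand) are shown because they define the genotype, with the seed, bases 2 to 8, in capitals.
mmu-miR-142a-3p: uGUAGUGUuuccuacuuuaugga
mmu-miR-142a-5p: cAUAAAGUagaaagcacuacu
The Mir142 probe set read 4.79 in ko and 9.87 in wt CD8-equivalent DCs, and 4.92 in ko and 10.37 in wt CD4-equivalent DCs. Both ko values lay below the floor, although the probe set checks the labels only if it lies in the deleted part.

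The sort and the mix of cells were checked on marker lists. Sirpa, which encodes the sort marker CD172a, was lower in the CD8-equivalent cells of both genotypes (CD8- minus CD4-equivalent, -2.25 in ko and -2.42 in wt), and Cd24a was higher (0.73 in ko and 1.78 in wt). Of 12 markers of CD4-equivalent DCs, Sirpa among them, 10 reached the floor on at least 1 array. Limma's subset test called 9 lower in CD8-equivalent DCs (6.35% of all genes tested were) and 0 higher. Cd4 and Esam, which are on that list and mark the CD4-type DCs of spleen, lay below the floor on all 4 arrays. The ko CD4-equivalent array stood apart in its neutrophil markers. Its 14 neutrophil markers averaged 7.43 on the log2 scale, against 5.58 on the wt CD4-equivalent array, and 12 of them reached the floor there, against 4 in wt. The CD8-equivalent arrays averaged 5.31 (ko) and 5.12 (wt) for the same list. Camp and Ly6g lay below the floor on all 4 arrays. Of 12 markers of CD8-equivalent DCs compared between the CD4-equivalent arrays, 5 were at least 2-fold higher in ko, 0 were 2-fold lower and 7 differed by less. Over all genes compared there, 2.35% differed by 2-fold either way. Clec9a, one of the 5, read 10.85 in ko and 7.78 in wt, and Cd36, one of the 7, read 8.42 in ko and 9.21 in wt. Between the CD8-equivalent arrays, 2 of 13 markers of this list were at least 2-fold lower in ko, 0 were higher and 11 differed by less. Their median difference, ko minus wt, was -0.48, and 2.15% of all genes compared differed by 2-fold either way. Plasmacytoid DC markers (9 of 12 measured) averaged 10.28, 10.06, 9.18 and 8.24 on the ko CD8-, wt CD8-, ko CD4- and wt CD4-equivalent arrays. Of 8 measured B cell and 8 measured T and NK cell markers, 4 and 2 reached the floor on any array. Whether these cells contribute to the differences given below was not tested, also where marker values are given beside them.

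**Figure D1:**
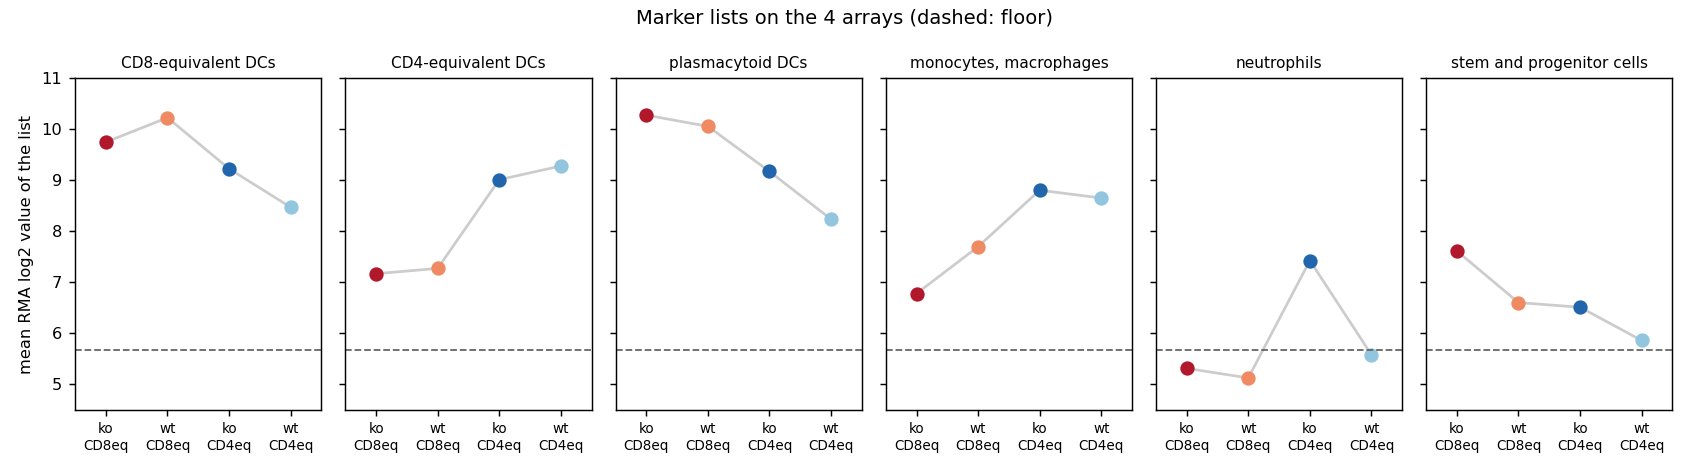
Mean RMA log2 value (vertical axis) of 6 marker lists on each of the 4 arrays (points, 1 array per group), with the floor of 5.68 dashed. Neutrophil markers stand at 7.43 on the ko CD4-equivalent array and between 5.12 and 5.58 on the other arrays, and the mean of the progenitor markers is higher on the ko than on the wt array of each subset.

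The first question was how the loss of miR-142 bore on these genes. No member passed limma's genotype test (0 of 10, where 0.166% of all genes tested were called), and the smallest adjusted p was 0.130. With limma's trended and robust prior 2 were called, where that prior called 3.0% of all genes. At an unadjusted p under 0.05 there were 4 members, Csf2rb, Csf2rb2, Csf3r and Csf1r, beside 15.6% of all genes. In single-array comparisons 1 of 8 members at or above the floor differed by at least 2-fold in CD8-equivalent DCs (2.15% of all genes) and 0 of 10 in CD4-equivalent DCs (2.35%). That one was Csf2rb. At 1.5-fold there were 3 of 8 in CD8-equivalent DCs (8.09% of all genes) and 2 of 10 in CD4-equivalent DCs (7.7%). The median difference of the members, ko minus wt, was -0.21 in CD8-equivalent and -0.24 in CD4-equivalent DCs, beside 0.004 and -0.077 over all genes compared. In 5 of 10 members the difference had opposite signs in the subsets, as in 38.2% of all genes, and for 1 of 10, Socs2, the subsets' differences lay at least 1 log2 unit apart (2.24% of all genes).

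**Figure D2:**
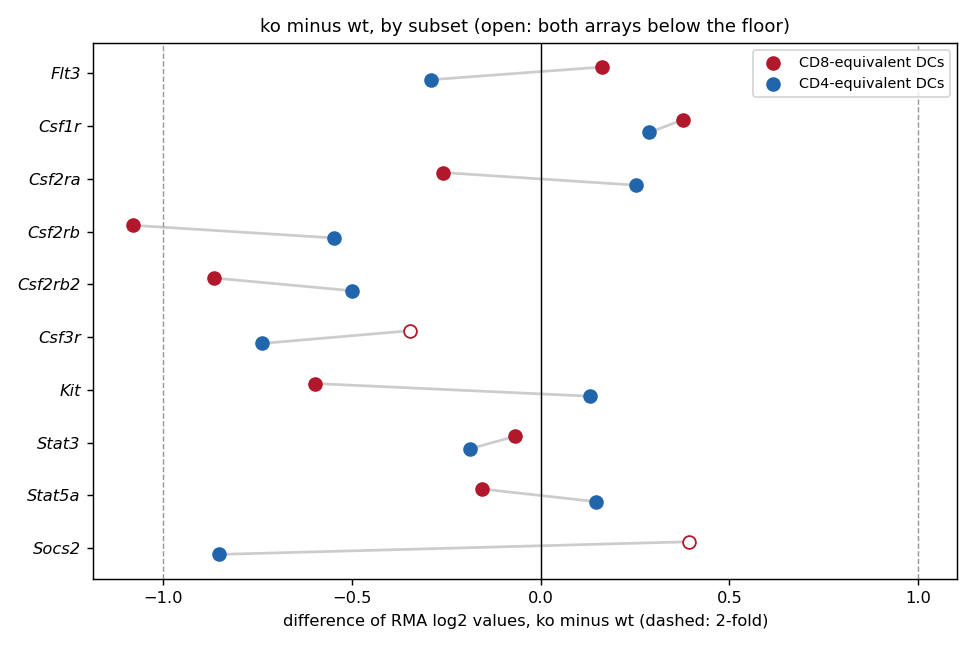
Difference of RMA log2 values, ko minus wt (horizontal axis), for each of the 10 genes in CD8-equivalent (red) and CD4-equivalent (blue) DCs, 1 array per group, with 2-fold dashed and open points where both arrays lay below the floor. Csf2rb (-1.08 and -0.55) and Csf2rb2 (-0.87 and -0.50) lie left of 0 in both subsets, while Flt3 and Csf2ra straddle 0.

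The second question was how the subsets differed. Here 5 of 10 members passed limma's subset test (14.3% of all genes tested): in CD8-equivalent DCs, set against CD4-equivalent ones, Csf3r, Csf1r, Csf2ra and Csf2rb fell (6.35% of all genes did) and Kit rose (7.98%). By at least 2-fold, 4 of 10 members were lower (3.9% of all genes) and 0 higher (3.39%) in ko. In wt 3 of 10 were lower (3.14%) and 1 higher (2.1%). The median difference of the members, CD8- minus CD4-equivalent, was -0.52 in ko and -0.38 in wt, beside 0.11 and 0.039 over all genes compared. Both CD8-equivalent arrays lay below both CD4-equivalent arrays for 6 members (21.3% of all genes) and above them for Kit (37.0%). With all genes in the fit and no floor, 2 members kept an adjusted p under the threshold, Csf3r and Csf1r, beside 4.74% of all genes. With the trended and robust prior 6 members were called, beside 20.8% of all genes. Cyclic loess moved the median difference of all genes in ko from 0.11 to 0.011 and left the 5 calls in place.

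**Figure D3:**
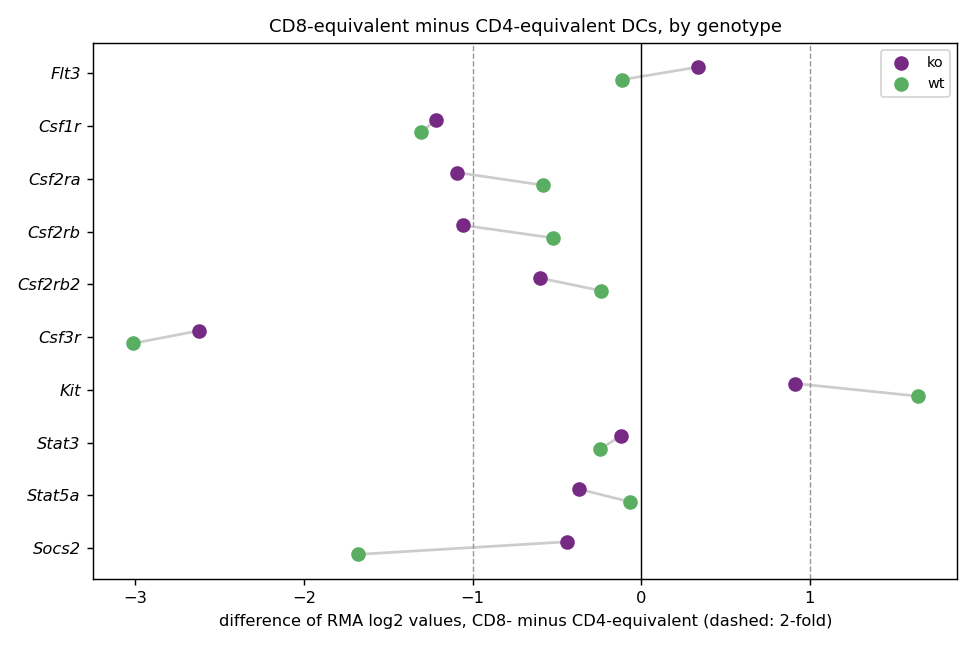
Difference of RMA log2 values, CD8-equivalent minus CD4-equivalent DCs (horizontal axis), for each of the 10 genes in ko (purple) and wt (green), 1 array per group, with 2-fold dashed. Csf3r lies farthest left (-2.63 and -3.02) and Kit farthest right (0.91 and 1.64).

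Flt3, the receptor for the cytokine of the culture, was about as high on every array. It read 11.90 in ko and 11.74 in wt CD8-equivalent DCs, and 11.56 in ko and 11.86 in wt CD4-equivalent DCs. Its 4 values spanned 0.34, and limma's moderated residual for this gene gives 0.22 as the standard deviation of a difference between 2 arrays. That residual comes partly from the same 4 values, so this is a description and not a test. The genotype effect was -0.064 ± 0.15 (SE), with a 95% interval of -0.46 to 0.33 and an adjusted p of 0.89 by limma. The subset effect was 0.11 ± 0.15 with an interval of -0.29 to 0.51 (adjusted p = 0.66). Both intervals allow changes of under 1.5-fold either way. Flt3l, which encodes the ligand, was the only one of 10 measured growth factor genes to reach the floor. It read 7.51 in ko and 7.90 in wt CD8-equivalent DCs, and 8.16 in ko and 8.35 in wt CD4-equivalent DCs. Its subset effect passed the test (-0.55, adjusted p = 0.049), and its genotype effect did not (adjusted p = 0.36). Csf1, Il34, Csf2, Csf3, Kitl, Il3, Il5, Epo and Tslp lay below the floor on all arrays.

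The beta chains of the GM-CSF and IL-3 receptors had the largest genotype differences of these 10 genes in CD8-equivalent DCs. Csf2rb read 10.27 in ko and 11.35 in wt CD8-equivalent DCs, and 11.32 in ko and 11.87 in wt CD4-equivalent DCs. It was 2.12-fold lower in ko in CD8-equivalent and 1.46-fold lower in CD4-equivalent DCs, and the ko CD8-equivalent array stood 1.06 below the next one. In CD8-equivalent DCs 1.70% of the genes compared had as large a difference, and in CD4-equivalent DCs 8.99%. Csf2rb2 read 10.15 in ko and 11.02 in wt CD8-equivalent DCs, and 10.76 in ko and 11.26 in wt CD4-equivalent DCs. It was 1.82-fold and 1.42-fold lower in ko. Csf2rb and Csf2rb2 were the 2 members whose ko arrays both lay below both wt arrays, as in 18.1% of all genes, though for Csf2rb by only 0.026 between the nearest arrays.

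Neither beta chain passed the genotype test. Limma's mean difference was -0.82 ± 0.17 (SE) for Csf2rb (adjusted p = 0.130) and -0.68 ± 0.14 for Csf2rb2 (adjusted p = 0.132). With limma's trended and robust prior, which called 307 genes in place of 17, the adjusted p was 0.038 for Csf2rb and 0.029 for Csf2rb2. Across the other alternatives it stayed above the threshold. The subset effect passed for Csf2rb (-0.79 ± 0.17, adjusted p = 0.042) but missed with the arrays centred on their medians (adjusted p = 0.057). For Csf2rb2 it missed (-0.42 ± 0.14, adjusted p = 0.113). The interaction, the genotype difference in CD8-equivalent minus that in CD4-equivalent DCs, was -0.53 for Csf2rb and -0.36 for Csf2rb2 and had no test. The genes lie next to each other on chromosome 15 in RefSeq's order. They are close paralogs, so probes may read both, which was not checked, and their values cannot be taken as independent.

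Csf2ra, the GM-CSF-binding chain that pairs with Csf2rb, did not share that pattern. It read 8.98 in ko and 9.24 in wt CD8-equivalent DCs, and 10.07 in ko and 9.82 in wt CD4-equivalent DCs. Its genotype difference was -0.26 in CD8-equivalent and 0.25 in CD4-equivalent DCs, with a mean of -0.003 ± 0.16 (adjusted p = 0.997). It was lower in CD8-equivalent DCs, with differences of -1.09 in ko and -0.58 in wt, and the subset effect passed the test (-0.84 ± 0.16, adjusted p = 0.035). Csf2rb and Csf2ra share the direction of the subset difference. It was larger in ko (-1.06 and -1.09) than in wt (-0.52 and -0.58), which was not tested. Csf2rb2 went the same way (-0.60 in ko and -0.24 in wt). Over all genes compared, the median size of the difference was also larger in ko (0.27) than in wt (0.21). Il3ra, the IL-3-binding chain, differed by -0.010 and 0.34 between genotypes (adjusted p = 0.63), and Il5ra lay below the floor on all arrays.

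RefSeq promoters (250 bases before to 50 after the start, GRCm38.p6) were searched for 7 members on both strands for the STAT motif TTCNNNGAA, the PU.1-type motif GAGGAA and the RUNX motif TGTGGT. Among 32851 promoters of the same length, 8.30% held the STAT motif, 28.3% the PU.1-type motif and 16.8% the RUNX motif. Of the 7, Csf2rb2 alone had a STAT match, and it also had 2 PU.1-type matches, as did Csf2ra. No match overlapped another. Its promoter is shown because it belongs to the beta chain pair (chr15:78305672-78305971, minus strand, matches in capitals).
Csf2rb2 promoter: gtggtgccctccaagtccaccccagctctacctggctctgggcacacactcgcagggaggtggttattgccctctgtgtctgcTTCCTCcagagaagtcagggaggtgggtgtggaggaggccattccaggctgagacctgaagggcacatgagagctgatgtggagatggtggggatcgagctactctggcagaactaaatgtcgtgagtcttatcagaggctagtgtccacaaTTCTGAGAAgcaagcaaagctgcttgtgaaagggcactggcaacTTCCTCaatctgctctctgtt
The STAT match began 15 bases before the gene's start. A match is a run of letters and not a bound site.

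Csf1r, the M-CSF receptor, separated the subsets in both genotypes. It read 10.33 in ko and 9.96 in wt CD8-equivalent DCs, and 11.55 in ko and 11.26 in wt CD4-equivalent DCs. The CD8-equivalent arrays lay 2.33-fold (ko) and 2.47-fold (wt) below the CD4-equivalent ones, and limma's subset effect was -1.26 ± 0.12 (SE; adjusted p = 0.0082). Csf1r was the only member higher in ko in both subsets, by 0.38 and 0.29, with a mean of 0.33 ± 0.12 that did not pass (adjusted p = 0.29). Its interaction, 0.088, was the smallest of the 10 in size. The marker list of monocytes and macrophages (14 of 15 measured) averaged 6.78 in ko and 7.70 in wt CD8-equivalent DCs, and 8.81 in ko and 8.65 in wt CD4-equivalent DCs. In CD8-equivalent DCs the median difference of the 14 markers, ko minus wt, was -0.49, with 6 of the 14 at or above the floor in ko and 10 in wt, while Csf1r was higher in ko there. No marker of the list passed the genotype test. Adgre1, which encodes the macrophage protein F4/80, read 5.08 in ko, below the floor, and 8.09 in wt CD8-equivalent DCs, which makes it at least 5.31-fold lower in ko. C1qa, Mertk and Vcan lay below the floor on all 4 arrays.

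Csf3r, the G-CSF receptor, had the largest measured subset difference of the members. It read 4.46 in ko and 4.81 in wt CD8-equivalent DCs, both below the floor, and 7.09 in ko and 7.83 in wt CD4-equivalent DCs. Against the floor, the CD8-equivalent level was at least 2.65-fold lower in ko and at least 4.43-fold lower in wt. The measured differences, taken against values below the floor, were -2.63 and -3.02, and limma's subset effect was -2.82 ± 0.15 (SE; adjusted p = 0.0029). Between genotypes, Csf3r was 1.67-fold lower in ko CD4-equivalent DCs, and the genotype effect did not pass (-0.54 ± 0.15, adjusted p = 0.195). In that same comparison the neutrophil markers went the other way, with a median difference of 1.63 over all 14 markers, although 10 of the 14 lay below the floor in wt, so that most of these differences were taken against values not above it. Lcn2, a granule protein of neutrophils, read 10.28 in ko and 6.47 in wt CD4-equivalent DCs. Mmp8, a neutrophil collagenase, was an exception (7.79 in ko, 8.48 in wt) and like Csf3r had a called subset effect (adjusted p = 0.0020). Its CD8-equivalent values, 4.66 in ko and 5.12 in wt, lay below the floor, which makes it at least 4.32-fold lower in ko and at least 6.97-fold lower in wt.

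Kit, the stem cell factor receptor, was the member higher in CD8-equivalent DCs in both genotypes. It read 9.16 in ko and 9.76 in wt CD8-equivalent DCs, and 8.24 in ko and 8.11 in wt CD4-equivalent DCs. The subset difference was 1.88-fold in ko and 3.12-fold in wt, and limma's subset effect was 1.28 ± 0.20 (SE; adjusted p = 0.023, and 0.058 without a floor). Between genotypes, Kit was 1.51-fold lower in ko CD8-equivalent and 1.10-fold higher in ko CD4-equivalent DCs, with a mean of -0.23 ± 0.20 (adjusted p = 0.64). The progenitor markers (10 of 12 measured) averaged 7.61 in ko and 6.60 in wt CD8-equivalent DCs, and 6.51 in ko and 5.86 in wt CD4-equivalent DCs. The median difference of the 10 markers, ko minus wt, was 0.95 in CD8-equivalent and 0.22 in CD4-equivalent DCs. At least 2-fold higher in ko were 4 of 7 markers compared in CD8-equivalent and 2 of 6 in CD4-equivalent DCs, and 0 were 2-fold lower. Over all genes compared, 2.15% and 2.35% differed by 2-fold either way. Cd34 differed by -0.09 in CD8-equivalent and Sox4 by -0.11 in CD4-equivalent DCs. Hoxa9, a homeobox factor of progenitors, was the 1 marker of this list to pass the genotype test (adjusted p = 0.0095). It read 9.59 in ko and 6.57 in wt CD8-equivalent DCs, and 8.82 in ko and 5.36 in wt CD4-equivalent DCs. The last value lay below the floor, so that Hoxa9 was at least 8.83-fold higher in ko there. Gata2, Mycn and Prom1 lay below the floor on all arrays. Of 13 markers of mast cells, which also carry Kit, basophils and eosinophils, 11 lay below the floor everywhere. Those 11 include Mcpt4, Fcer1a and Ms4a2. The other 2 were Cpa3 and Siglecf. Cpa3 reached the floor only in ko CD8-equivalent DCs (5.93, against 4.90 in wt), at least 1.19-fold higher. Siglecf reached it on all 4 arrays and was lower in CD8-equivalent DCs (limma's subset effect -0.79, adjusted p = 0.030).

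The promoters of Csf3r and Kit are shown because these genes separated the subsets in opposite directions. Each window held 1 PU.1-type match and no STAT or RUNX match. The windows are chr4:126024409-126024708 for Csf3r and, for the first of the 2 annotated starts of Kit, chr5:75574737-75575036, both on the plus strand with matches in capitals.
Csf3r promoter: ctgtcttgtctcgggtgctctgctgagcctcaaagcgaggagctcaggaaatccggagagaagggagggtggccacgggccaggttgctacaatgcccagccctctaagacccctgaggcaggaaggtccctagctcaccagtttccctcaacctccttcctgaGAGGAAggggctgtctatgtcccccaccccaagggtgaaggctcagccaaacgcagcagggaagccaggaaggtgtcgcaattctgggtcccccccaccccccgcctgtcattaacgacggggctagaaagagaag
Kit promoter: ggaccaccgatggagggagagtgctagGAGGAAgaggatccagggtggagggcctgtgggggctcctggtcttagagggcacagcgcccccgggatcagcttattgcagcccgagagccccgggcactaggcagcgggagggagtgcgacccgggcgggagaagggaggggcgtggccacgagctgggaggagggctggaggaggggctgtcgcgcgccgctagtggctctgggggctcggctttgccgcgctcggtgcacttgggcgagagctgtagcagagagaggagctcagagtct
The match began 86 bases before the start in Csf3r and 223 bases before it in Kit. The Flt3 and Stat3 windows held no match to any of the motifs.

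**Figure D4:**
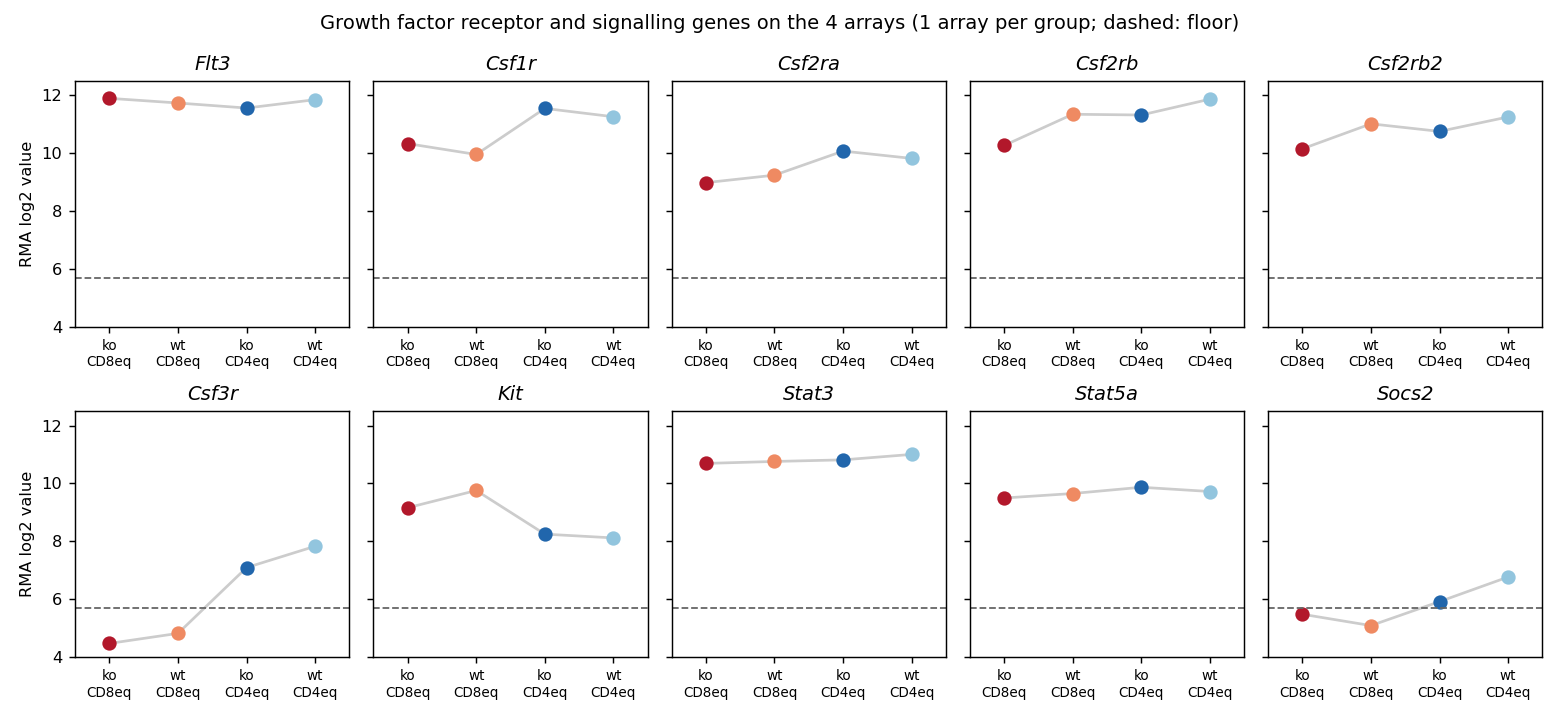
RMA log2 value (vertical axis) of each of the 10 genes on the ko CD8-, wt CD8-, ko CD4- and wt CD4-equivalent arrays (points, 1 array per group), with the floor of 5.68 dashed. Flt3, Stat3 and Stat5a are nearly level, and neither CD8-equivalent array shows Csf3r above the floor. Csf2rb and Csf2rb2 are lowest on the ko CD8-equivalent array, as are Csf2ra, Csf3r, Stat3 and Stat5a.

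The signal transducers varied little. Stat3 read 10.69 in ko and 10.76 in wt CD8-equivalent DCs, and 10.82 in ko and 11.01 in wt CD4-equivalent DCs. Stat5a read 9.50 in ko and 9.65 in wt CD8-equivalent DCs, and 9.87 in ko and 9.72 in wt CD4-equivalent DCs. Their spans were 0.31 and 0.37. For Stat3 the genotype effect was -0.13 ± 0.12 (SE) and the subset effect -0.18 ± 0.12. For Stat5a they were -0.004 ± 0.13 and -0.22 ± 0.13, and none of these passed limma's test (adjusted p from 0.31 to 0.99). The 95% intervals of the genotype effects ran from -0.43 to 0.18 for Stat3 and from -0.35 to 0.34 for Stat5a. Stat5b, Stat5a and Stat3 are consecutive protein-coding genes of chromosome 11 in RefSeq's order, and Stat5b differed by -0.061 and -0.22 between genotypes (adjusted p = 0.65).

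Socs2 was near the floor and its probe sets differed. The brighter one read 5.47 in ko and 5.08 in wt CD8-equivalent DCs, both below the floor, and 5.91 in ko and 6.76 in wt CD4-equivalent DCs. It was 1.80-fold lower in ko CD4-equivalent DCs, where 3.43% of the genes compared had as large a difference. In wt the CD8-equivalent level was at least 2.12-fold lower than the CD4-equivalent one, counted against the floor. The subset effect missed the threshold (-1.06 ± 0.30 (SE), adjusted p = 0.079), and so did the genotype effect (-0.23 ± 0.30, adjusted p = 0.77). The dimmer probe set read 5.24 in ko and 5.17 in wt CD8-equivalent DCs, and 5.75 in ko and 5.60 in wt CD4-equivalent DCs. It gave a genotype difference of 0.15 in CD4-equivalent DCs, the opposite sign, so the direction for Socs2 rests on 1 probe set.

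Other genes of these pathways were read from lists written with earlier results of these data known. Over the 6 lists of ligands, cytokine receptors, related receptor kinases, JAKs and STATs, inhibitors, and adaptors, limma called 0 of 65 genes for genotype, with 8 (12.3%) at an unadjusted p under 0.05, beside 15.6% of all genes. With the trended and robust prior, which called 3.0% of all genes, 1 of the 65 was called, Lifr. Between genotypes, 2.15% of all genes differed by at least 2-fold in CD8-equivalent and 2.35% in CD4-equivalent DCs. A count of 0 in lists as short as those below lies near these shares. The medians over all genes compared were 0.004 and -0.077. Among 18 measured cytokine receptors, 14 reached the floor, with median genotype differences of 0.068 in CD8-equivalent and 0.056 in CD4-equivalent DCs. Lifr, the receptor for leukaemia inhibitory factor, was the only one at least 2-fold different, and it was higher in ko (1.02 and 0.84, adjusted p = 0.064). The 7 measured JAK and STAT genes had medians of -0.22 in both subsets. Stat4, which carries IL-12 signals, was lower by 0.52 in ko CD8-equivalent and by 1.15 in ko CD4-equivalent DCs (adjusted p = 0.141). Of 18 inhibitors at or above the floor, 0 differed by 2-fold between genotypes, with medians of 0.028 and -0.17, and Cish and Socs1 lay below the floor on all arrays. The 24 adaptors and kinases had medians of -0.003 and -0.13, and 0 of them differed by 2-fold. Of 16 known STAT5 target genes, 10 were compared in CD8-equivalent and 12 in CD4-equivalent DCs, and 0 differed by 2-fold (medians -0.14 and -0.030). Of 15 DC transcription factors at or above the floor, Irf8 alone differed by 2-fold between genotypes, and it was higher in ko CD4-equivalent DCs (0.11 in CD8-equivalent, 1.29 in CD4-equivalent DCs, adjusted p = 0.34).

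**Figure D5:**
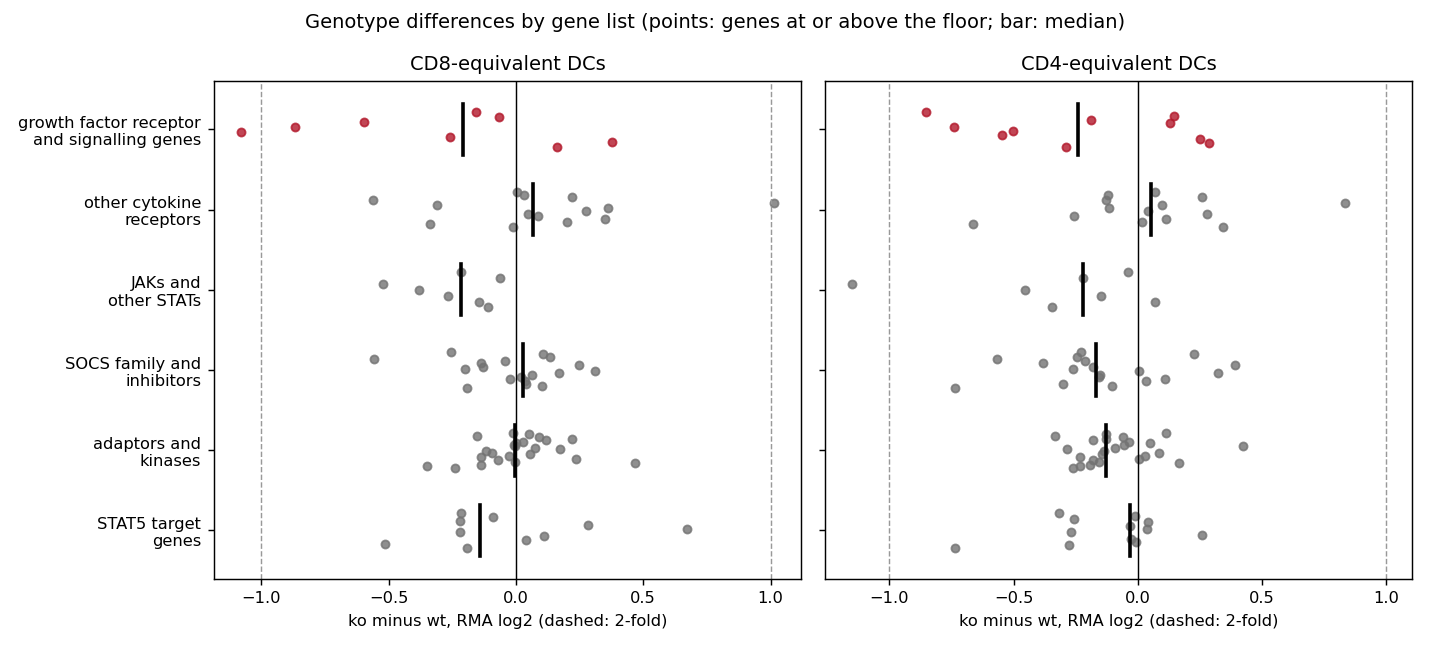
Difference of RMA log2 values, ko minus wt (horizontal axis), for the genes of 6 lists at or above the floor (points, with the 10 genes of the report in red) in CD8-equivalent (left) and CD4-equivalent (right) DCs, with black bars for medians and 2-fold dashed. Most genes lie within 2-fold, with Csf2rb and Lifr past it in CD8-equivalent and Stat4 in CD4-equivalent DCs.

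Between the subsets, 11 of the 65 genes of these 6 lists passed limma's test (16.9%, beside 14.3% of all genes tested), 1 higher and 10 lower in CD8-equivalent DCs. Of the cytokine receptors, Il7r, the IL-7 receptor, rose in CD8-equivalent DCs (1.29 in ko, 1.05 in wt, adjusted p = 0.012). Il10ra, which binds IL-10, Il6ra and Il21r fell, with subset effects of -0.96, -0.75 and -0.87 (adjusted p = 0.016, 0.030 and 0.029). Stat4 fell by 2.07 (adjusted p = 0.0077) and Stat6, which carries IL-4 signals, by 0.56 (adjusted p = 0.046). Socs3, a feedback inhibitor of STAT3, fell by 0.96 (adjusted p = 0.028), reading 5.58 in ko, below the floor, and 5.77 in wt CD8-equivalent DCs against 6.26 in ko and 7.00 in wt CD4-equivalent DCs. The adaptor Gab2 and the kinase Syk also fell (-0.53 and -0.69, adjusted p = 0.048 and 0.028). Of the 12 STAT5 targets at or above the floor, 2 rose and 2 fell. Pim2, a survival kinase, and Id2 rose (0.91 and 0.70, adjusted p = 0.016 and 0.031). Socs3, which is also on that list, and Il2ra fell. Il2ra (adjusted p = 0.020) read 5.04 in ko and 5.14 in wt CD8-equivalent DCs, both below the floor, and 5.79 in ko and 6.11 in wt CD4-equivalent DCs, so that it was at least 1.08-fold lower in ko and at least 1.35-fold lower in wt. Kdr, the VEGF receptor and next gene to Kit in RefSeq's order, fell by 0.66 (adjusted p = 0.028) near the floor (5.45, below it, in ko and 5.76 in wt CD8-equivalent DCs, 6.08 in ko and 6.44 in wt CD4-equivalent DCs), opposite to Kit.

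Genes whose pattern over the 4 arrays was nearest to each member were found by the Euclidean distance between mean-centred log2 values, among 10238 genes. With 4 arrays many genes fit closely, so this is a description. Csf3r was nearest to Irf4, a transcription factor of CD4-equivalent DCs (distance 0.18, against a median of 2.96 over all genes), then to H2-Eb2 (0.22) and Xaf1 (0.25). Kit was nearest to Batf3, a transcription factor of CD8-equivalent DCs (distance 0.14, median 1.31), then to Cd226 (0.17) and Gpr157 (0.18). Batf3 read 7.11 in ko and 7.70 in wt CD8-equivalent DCs, and 6.03 in ko and 6.06 in wt CD4-equivalent DCs. Csf2ra was nearest to Ctss, a lysosomal cathepsin (0.057, median 1.00), Sfxn3 (0.057) and the chemokine receptor Ccr1 (0.066). Csf2rb was nearest to Aph1c, a gamma-secretase subunit (0.074, median 1.24), Gpr132 (0.12) and Anxa1 (0.13), and Csf2rb2 ranked 48 in that order (0.40). Csf2rb2 was nearest to Lrrc61 (0.092, median 0.90), G430095P16Rik (0.13) and Nqo2 (0.13). Csf1r was nearest to Atxn1 (0.072, median 1.42), Afdn (0.14) and Atp6v0a1 (0.15). Socs2, whose probe sets differ, was nearest to Dmpk (0.25, median 1.32), Ggt5 (0.25) and Cd101 (0.30). Some of these distances rest partly on values below the floor, which are too low to rank. Csf3r, Socs2, H2-Eb2, Xaf1, Ggt5 and Atxn1 lay below it on both CD8-equivalent arrays. Cd101 reached it only in wt CD4-equivalent DCs, and Gpr157 lay just below it there.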

How the data were processed

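Per the submitters' processing notes, the deposited log2 values were made with RMA and Partek, from total RNA labelled by the standard Affymetrix protocol per the labels. The log base was inferred from the values (3.52 to 14.3). Software versions and probe set annotation were not given in the sources used here, and without scanner values or detection calls scale and centring could not be checked. RMA compresses low values. Of 35399 probe sets, 21789 carried 1 symbol, 1621 several and 11989 were unnamed here; 21698 matched RefSeq by gene ID. The brightest probe set was used for 999 genes with several. Differences were taken between single arrays without a test where the higher value reached the floor of 5.68, and genotype and subset effects were fitted with limma 3.58.1 in R 4.3.3 (additive model, lmFit and eBayes, 3.98 prior degrees of freedom, two-sided, adjusted p threshold 0.05). On data simulated for 10239 genes, the genotype fit recovered 79 of 100 genes changed by 1 on the log2 scale. It recovered 100 of 100 changed by 2, with 13 false calls among 192. The subset fit recovered 74 and 100, with 8 false calls among 182. The simulated spread was drawn from limma's fitted prior, without an interaction. The genotype fit called 192 genes there, against 17 on the real arrays. These shares therefore do not give the recovery on the real arrays, which was not tested. On the real arrays limma's genotype test did not call the neutrophil marker Mpo (effect 2.30, adjusted p = 0.053) or Adgre1 (-2.28, adjusted p = 0.079). It called Mir142 (-5.26, adjusted p = 0.0029) and Hoxa9 (3.24, adjusted p = 0.0095). Alternatives were cyclic loess, median centring, no floor, a floor of 6.68, limma's trended and robust prior, the mean of all probe sets, and 1.5-fold for counts. All 10 members are named; other genes are those limma called, the up to 3 past 2-fold with the largest differences per list and comparison, the 3 nearest patterns of members spanning at least 1 log2 unit, check genes and neighbours. Il3ra, Stat5b and genes stated to lie below the floor were added after their values were seen. The members and lists were chosen with earlier results of these data known. The number of arrays limits the precision.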

Additional observations from a re-analysis of the deposited data

Results flagged for a closer look

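In 5 of the 10 genes the ko minus wt difference had opposite signs in the subsets, as in 38.2% of all genes tested. Each side is 1 array against 1 array, and the differences between subsets were not tested. The difference in CD8-equivalent minus that in CD4-equivalent DCs was 1.24 for Socs2 (0.39 and -0.85), -0.73 for Kit (-0.60 and 0.13), -0.51 for Csf2ra (-0.26 and 0.25), 0.45 for Flt3 (0.16 and -0.29) and -0.30 for Stat5a (-0.16 and 0.15). Among all genes tested, 2.24% had a difference of at least 1 log2 unit either way, and Socs2 was the one member past it. Both CD8-equivalent values of Socs2 lay below the floor. Flt3 also changed sign when the subsets were compared within a genotype (0.34 in ko, -0.12 in wt), the same 0.45 seen from the other side.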

How the results depend on the processing

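Of 60 genotype effects recomputed under the alternatives, 56 kept their direction and their side of the threshold, and likewise 55 of 60 subset effects. The size and direction of an effect could change only under cyclic loess, median centring and, for Socs2, the mean of all probe sets. Elsewhere only the adjusted p could move. Under cyclic loess the genotype effects of Csf2ra and Stat5a, near 0 in the report, became 0.040 (adjusted p = 0.94) and 0.038 (adjusted p = 0.93). The trended and robust prior called 2 members for genotype (Csf2rb and Csf2rb2), in place of 0, and added Csf2rb2 (adjusted p = 0.041) to the subset calls, while calling 3.0% of all genes for genotype and 20.8% for subset. Without a floor, which tests 19938 genes, 2 members in place of 5 were called for subset: Csf2ra (adjusted p = 0.072), Csf2rb (0.082) and Kit (0.058) missed. Over all genes, the genotype calls were 17 as reported, 8 with median centring, 3 without a floor, 120 with the higher floor and 307 with the trended and robust prior, and the subset calls were 1467, without a floor 946 and with the trended and robust prior 2128. At 1.5-fold, 3 members differed between genotypes in CD8-equivalent and 2 in CD4-equivalent DCs, beside 8.09% and 7.7% of all genes. The Socs2 differences moved with the mean of both probe sets (-0.35 ko minus wt in CD4-equivalent DCs, interaction 0.58). Of 136 recomputed list medians, 47 moved by over 0.1. No paired analysis was possible because each group has 1 array. Leaving out an array leaves no residual degree of freedom, so without the ko CD4-equivalent array the values are the single-array differences of the report.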
